A study of Mus musculus with 6 samples.

Results

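Cholesterol genes were examined in axitinib-resistant 4T1 cells that had been sorted by β-galactosidase activity. The members were 32 genes chosen by symbol for their known roles: 18 enzymes that make cholesterol, 5 genes of the sterol sensor that controls them, 2 genes of lipoprotein uptake, 4 of sterol transport and storage inside the cell, and 3 of efflux. All 32 were found among the 53465 genes of the deposited table, and 30 of them had enough counts to be tested. 4T1 is a mouse mammary carcinoma line. Axitinib is an inhibitor of VEGF receptor kinases, and every library came from cells selected under it: mice carrying 4T1 lesions after surgery received 100 mg/kg/day, and the cells taken from those lesions grew in culture with 0.5 µM of the drug. The groups were the fraction with high C12FDG signal (SM positive, 3 libraries) and the fraction with low signal (SM negative, 3 libraries). C12FDG is a β-galactosidase substrate that becomes fluorescent on cleavage, and strong cleavage is a common mark of senescent cells. Both fractions were axitinib-resistant, so the comparison holds no drug-naive cells. Whether replicates came from separate cultures or sorts is not in the labels, so p-values here cover only the variation among the 6 libraries, part of which may be technical.

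Cholesterol is built from acetyl-CoA through mevalonate, isoprenoids, squalene and a series of sterols. When the endoplasmic reticulum membrane holds little sterol, SCAP escorts the SREBP transcription factors to the Golgi, where they are cut and released to switch on the synthesis genes; when sterol is plentiful, INSIG proteins hold SCAP back. Excess sterol activates the LXR nuclear receptors, which induce the efflux pumps ABCA1 and ABCG1 and MYLIP, a ubiquitin ligase that removes lipoprotein receptors. Lysosomes, the compartment whose β-galactosidase the sort reads, also receive cholesterol from lipoproteins and export it through NPC2 and NPC1.

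Without pairing of the libraries, 1 of the 30 tested members passed, Insig1, which was higher in SM positive cells, and none of the 18 synthesis enzymes did. The enzymes' median log2 change in that fit was 0.18, and it was 0.03 without SM positive replicate 2. Across all genes, libraries with the same replicate number deviated together, and the fit was repeated with that number as a block. With the replicate number as a block, 16 of the 30 members rose and none fell: 12 of 18 synthesis enzymes, 3 of 5 control genes (Insig1, Insig2 and Srebf2), and 1 of 4 transport genes (Npc2). The fitted levels of those 12 enzymes were 11.1 to 23.2% higher in the fit without the block. No uptake or efflux member passed in either fit. The count of blocked calls depended on the tool: DESeq2 called 8 members higher, 6 of them synthesis enzymes, and limma-voom called 15, with 12 synthesis enzymes. Among all 14038 genes tested, the fit without the block called 1.35% (1.14% higher and 0.214% lower), and the blocked fit called 14.1% (8.52% higher and 5.6% lower). The single unblocked call among the members is close to that background, and the 16 blocked calls in edgeR are above it. That background was not matched for level: the members' median was 125 CPM (counts relative to the library total), against 25.1 CPM over all genes. The 18 enzymes also varied together within fractions (median correlation 0.89), so their 12 calls are not separate observations. Whether 16 calls exceed those among equally abundant genes that vary together was not tested. In RNA from a whole sorted fraction, fewer cells of a kind and less RNA per cell cannot be told apart. At an unadjusted p under 0.05 in edgeR's quasi-likelihood test, no member was lower without the block and 1 was lower with it. DESeq2 and limma-voom called no member lower, with or without the block. The blocked edgeR count also depended on having all 3 pairs: without pair 1, 2 or 3 it was 7, 9 and 9 of 30 members, while the calls over all genes dropped from 1982 to 705, 1793 and 886. Insig1, Hmgcs1, Hsd17b7 and Nsdhl were called each time.

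Depth was 18733801 to 26533528 counts per library. Levels are given as CPM, counts relative to the library total after TMM scaling, per library or as mean ± SD over n = 3 libraries. Of 5 epithelial markers none was at 0, and their summed level was 2834 to 3006 CPM in SM negative and 2711 to 2890.2 CPM in SM positive libraries. The 7 fibroblast and pericyte markers summed to 4.36 to 4.97 CPM in SM negative and 5.84 to 8.1 CPM in SM positive libraries, with Col3a1 and Lum at 0 counts in all 6. The 7 leukocyte and macrophage markers summed to 6.45 to 8.72 and 4.9 to 6.38 CPM, with Adgre1 and Cd3e at 0 counts, and the 4 endothelial markers to 0.279 to 0.427 and 0.0467 to 0.253 CPM. The fibroblast, leukocyte and endothelial sums did not overlap between the fractions, the first being higher and the others lower in SM positive libraries. Among single genes tested, 10.4% had all SM positive libraries above all SM negative ones, and 9.47% had all below. With the block, Epcam, Krt19 and Cd68 were lower and Pdgfra was higher in SM positive cells, with log2 changes of -0.16, -0.90, -0.46 and 0.50 in the fit without it. The last 3 were larger than any member's change, at levels under 7 CPM on average. The part of these differences in the cholesterol results was not tested.

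Levels can be compared between genes only per transcript length, here as TPM from the combined exon length of each gene, averaged over the 6 libraries. On that scale Insig1 was the most abundant member, at 511 TPM. Hmgcs1, the enzyme that condenses acetyl-CoA units on the way to mevalonate, followed at 430.0 TPM. Fdps, Cyp51, Msmo1, Sqle and Idi1 lay between 315 and 256 TPM. Among the control genes, Srebf2 stood at 109.8 TPM and Srebf1 at 33 TPM, so RNA of the factor known mainly for cholesterol genes was more abundant than that of the one known mainly for fatty acid genes. The efflux pumps were at the bottom: Abca1 had 0 counts in all 6 libraries, and Abcg1 had 1, 1 and 1 counts in SM negative and 2, 2 and 0 counts in SM positive libraries. A count of 0 allows a level of up to 0.113 to 0.16 CPM, depending on the library, set at 3 counts and covering counting error only. No difference in Abca1 or Abcg1 was detectable at this depth.

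**Figure D1:**
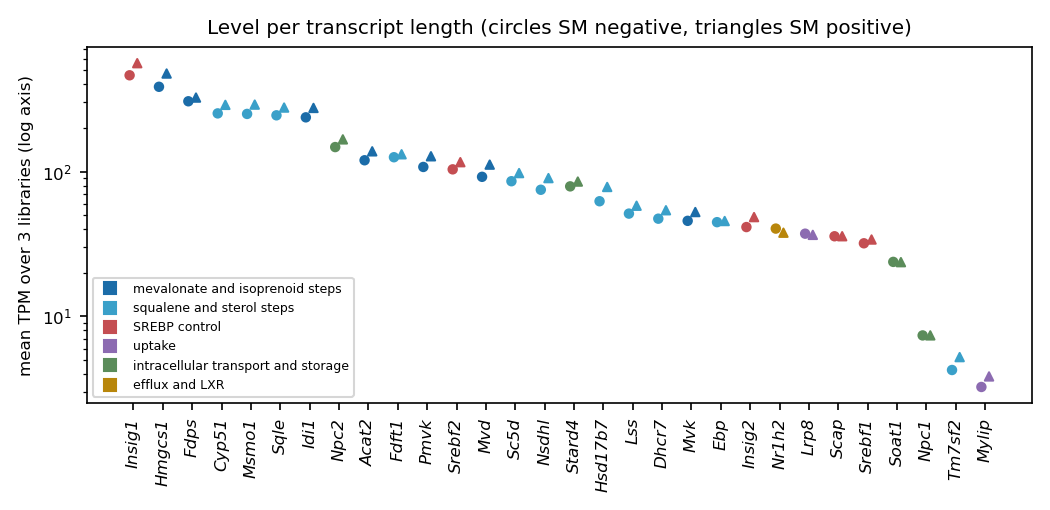
Mean level per transcript length (TPM, log axis) of the 30 tested members, as circles for the 3 SM negative libraries and triangles for the 3 SM positive libraries, coloured by role. Insig1 and Hmgcs1 were the most abundant members, Tm7sf2 and Mylip the least abundant of those tested, and the gaps between genes were far wider than the gaps between fractions.

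The start regions of the 4 members that passed in every blocked fit run (Insig1, Hsd17b7, Hmgcs1 and Nsdhl), and of Insig2 as the paralog of Insig1, are shown because these genes rose together; they were chosen after their values were seen. They are genomic reference sequences from RefSeq (GRCm38.p6), 5′ to 3′ on the gene's strand, cut where the first transcript in GENCODE or RefSeq begins. Capitals mark a CCAAT box (CCAAT or its complement ATTGG, the NF-Y motif), an E-box (CACGTG, which SREBP can bind) or the sterol response element core (TCACNCCAC).
Insig1, chr5:28071162-28071362, plus strand: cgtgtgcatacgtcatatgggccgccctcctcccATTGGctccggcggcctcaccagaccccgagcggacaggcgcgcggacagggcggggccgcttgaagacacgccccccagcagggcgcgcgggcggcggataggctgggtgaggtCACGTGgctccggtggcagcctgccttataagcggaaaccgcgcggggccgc
Hsd17b7, chr1:169969242-169969455, minus strand: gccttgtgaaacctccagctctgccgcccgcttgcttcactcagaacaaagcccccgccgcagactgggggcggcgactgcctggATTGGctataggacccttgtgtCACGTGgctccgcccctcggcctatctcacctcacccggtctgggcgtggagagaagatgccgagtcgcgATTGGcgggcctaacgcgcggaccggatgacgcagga
Hmgcs1, chr13:119690101-119690350, plus strand: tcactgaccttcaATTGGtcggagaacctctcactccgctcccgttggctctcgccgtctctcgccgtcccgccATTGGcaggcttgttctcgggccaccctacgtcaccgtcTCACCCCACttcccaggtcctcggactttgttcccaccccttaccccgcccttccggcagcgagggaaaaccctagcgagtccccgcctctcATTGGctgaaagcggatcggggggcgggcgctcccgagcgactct
Nsdhl, chrX:72918271-72918520, plus strand: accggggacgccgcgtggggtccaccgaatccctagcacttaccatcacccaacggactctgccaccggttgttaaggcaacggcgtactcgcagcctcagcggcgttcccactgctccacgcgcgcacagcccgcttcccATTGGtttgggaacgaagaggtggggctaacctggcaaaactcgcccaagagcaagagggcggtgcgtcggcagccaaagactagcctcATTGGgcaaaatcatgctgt
Insig2, chr1:121332590-121332839, minus strand: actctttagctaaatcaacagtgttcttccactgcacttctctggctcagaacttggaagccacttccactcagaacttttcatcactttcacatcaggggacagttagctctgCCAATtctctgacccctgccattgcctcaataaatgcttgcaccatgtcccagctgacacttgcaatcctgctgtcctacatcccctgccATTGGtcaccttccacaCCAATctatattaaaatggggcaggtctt

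Each of the 5 sequences holds at least 1 CCAAT box. The Hmgcs1 region holds 3 of them, at 237, 176 and 45 bases before the RefSeq start, around a sterol response element core at 137 bases. Insig1 and Hsd17b7 each carry an E-box, at 101 and 143 bases. The table of 250 bases before each start covered 26 of the 32 members, 15 of them synthesis enzymes. On either strand, a CCAAT box was in 21 of the 26 (14 of the 15 synthesis enzymes), against 41.2% of 9520 tested genes with such a sequence. The GC box GGGCGG was in 22 of the 26, against 64.7%, and the E-box in 6 of the 26, against 10%. The sterol response element core was in 1, Hmgcs1, against 1.17%. The longer SRE-1 element, which is that core with C at its open position and an A before it, was in none, against 0.0525%. The LXR motif, AGGTCA repeated after a gap of 4 bases, was in none of the members and none of the tested genes. These matches describe letters in the reference and were not measured in the cells.

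The first enzymes of the pathway lead from acetyl-CoA to farnesyl pyrophosphate. All 7 had log2 changes above 0, as did 49.8% of all genes tested. Their median was 0.19, against -0.001 over all genes. With the block 4 of the 7 rose, and 8.52% of all genes were called higher. DESeq2 with the block called 1 of these 4, Hmgcs1, and not Acat2, Mvd or Idi1 (adjusted p = 0.0771, 0.0787 and 0.491). Hmgcs1 (ENSMUSG00000093930.2, chromosome 13, 119690379 to 119708260, plus strand, GRCm38) stood at 599, 722 and 633 CPM in SM negative replicates 1, 2 and 3 and at 702, 869.9 and 793 CPM in SM positive replicates 1, 2 and 3. Each SM positive library was above its same-number partner, but SM negative replicate 2 lay above SM positive replicate 1, so the groups overlapped. Its log2 change was 0.28 ± 0.0892 (SE; adjusted p = 0.212, edgeR) without the block and 0.28 ± 0.0402 (adjusted p = 8.57e-05) with it. The size of the difference was the same in both fits, and the standard error was smaller with the block.

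Acat2, the cytosolic thiolase that makes acetoacetyl-CoA, stood at 111, 134 and 92.2 CPM in SM negative and 122, 152 and 107 CPM in SM positive libraries, higher in all 3 pairs and with overlapping groups (blocked log2 change 0.18 ± 0.0421, adjusted p = 0.00715). Its count may be split with its near copy Acat3, since 43.7% of the 31-base stretches of its exons are found elsewhere among exons. Mvd, the decarboxylase that yields isopentenyl pyrophosphate, stood at 57.5, 71.7 and 59.6 CPM in SM negative and 63.5, 95.4 and 66.2 CPM in SM positive libraries, with the widest gap in pair 2 (blocked log2 change 0.24 ± 0.0524, adjusted p = 0.00532). Idi1, the isomerase of that product, stood at 288, 363 and 266 CPM in SM negative and 288, 434 and 323 CPM in SM positive libraries (blocked log2 change 0.18 ± 0.052, adjusted p = 0.0374). Its pair 1 showed no gap, and other genes share 18.8% of its 31-base stretches. The kinases Mvk and Pmvk had blocked log2 changes of 0.16 ± 0.0579 and 0.20 ± 0.0655 and did not pass (adjusted p = 0.0681 and 0.0719). Fdps, which makes farnesyl pyrophosphate for both sterols and prenylated proteins, had 0.05 ± 0.0401 (adjusted p = 0.433), and other genes share 27.9% of its 31-base stretches.

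**Figure D2:**
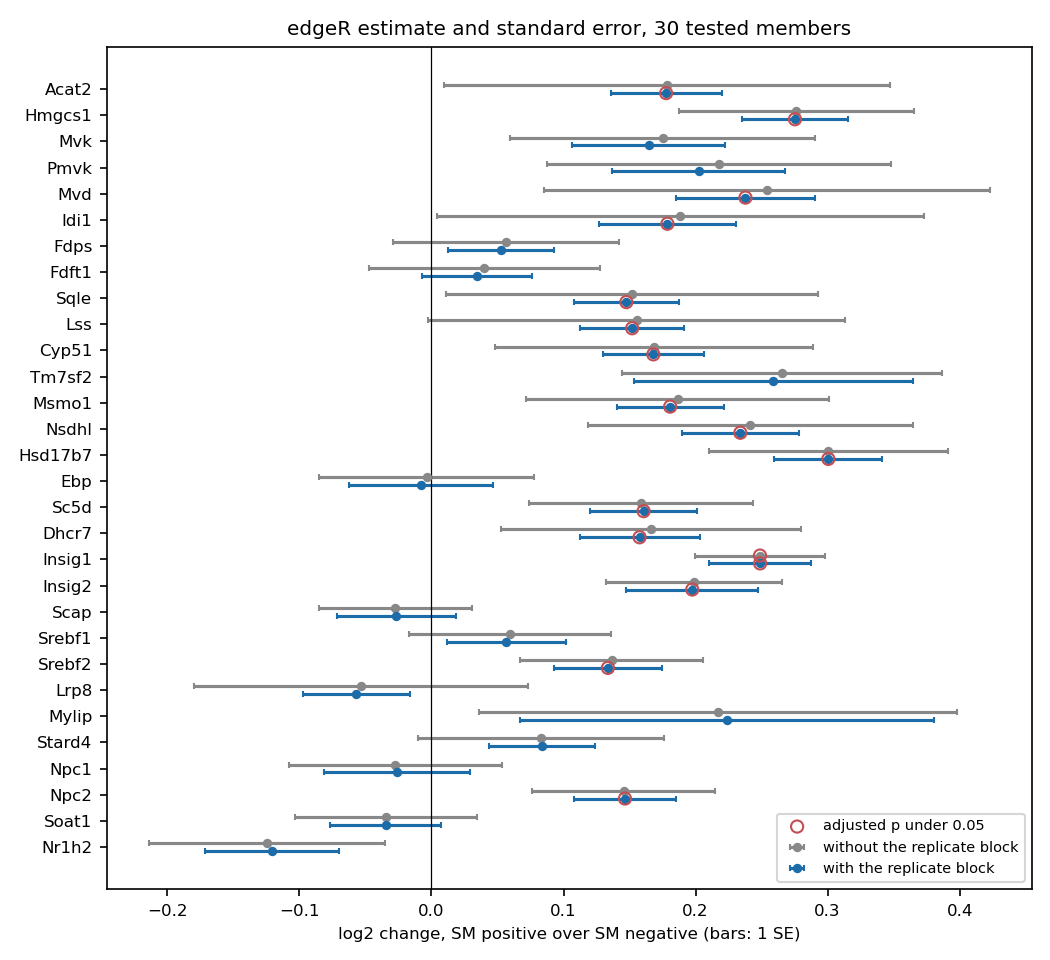
edgeR log2 change of SM positive over SM negative for the 30 tested members, with bars of 1 SE, without the replicate block (grey) and with it (blue); red rings mark an adjusted p under 0.05. The estimates barely moved between the fits, the bars were shorter with the block, and 1 member was ringed without it against 16 with it.

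The enzymes from squalene to cholesterol gave a like picture: 10 of 11 had log2 changes above 0, against 49.8% of all genes tested, and the median was 0.17. With the block 8 of the 11 rose, and 8.52% of all genes were called higher. DESeq2 with the block called 5 of these 8, and not Lss, Sc5d or Dhcr7 (adjusted p = 0.0712, 0.0869 and 0.233). Hsd17b7, the sterol 3-ketoreductase of C4 demethylation (ENSMUSG00000026675.12, chromosome 1, 169949535 to 169969241, minus strand), stood at 106, 131 and 115 CPM in SM negative and 130.2, 159 and 144 CPM in SM positive libraries. It had the largest log2 change of the 30 members, 0.30 ± 0.0907 without the block (adjusted p = 0.176) and 0.30 ± 0.041 with it (adjusted p = 3.87e-05). The gap was close to the same in each pair, at 0.30, 0.28 and 0.32 on the log2 scale. Nsdhl, the sterol dehydrogenase that acts in the same demethylation complex, stood at 72.2, 88.5 and 75.3 CPM in SM negative and 82.9, 111 and 84.5 CPM in SM positive libraries (blocked log2 change 0.23 ± 0.0443, adjusted p = 0.00115). Msmo1, the methyl oxidase of that complex, stood at 536, 637 and 525 CPM in SM negative and 588, 759 and 584 CPM in SM positive libraries (blocked log2 change 0.18 ± 0.0406, adjusted p = 0.00484). All 3 genes of this demethylation step were called with the block, as were 12 of the 18 synthesis enzymes. Over all genes tested, edgeR with the block called 8.52% higher. In each of the 3 genes SM positive replicate 2 was the highest library, as in all 18 synthesis enzymes.

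Sqle, the squalene epoxidase, stood at 434, 573 and 489 CPM in SM negative and 475, 659 and 529 CPM in SM positive libraries. The SM negative replicate 2 value exceeded SM positive replicates 1 and 3, although every SM positive library was above its partner (blocked log2 change 0.15 ± 0.0395, adjusted p = 0.0158). Lss, which closes squalene epoxide to lanosterol, Cyp51, which removes the first methyl group, Sc5d, the C5 desaturase, and Dhcr7, a reductase of the last steps, rose with the block by log2 changes of 0.15 ± 0.0396, 0.17 ± 0.0384, 0.16 ± 0.0407 and 0.16 ± 0.0454 (adjusted p = 0.0131, 0.00552, 0.011 and 0.024). Each of these 4 was higher in all 3 pairs. Exons of a gene on the opposite strand overlap those of Lss, Cyp51, Hmgcs1, Idi1, Fdft1, Scap, Srebf1 and Npc1, and no source used here says whether counting was by strand, so antisense reads may be part of their levels.

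Among the 6 enzymes that did not pass, Ebp and Fdft1 had the smallest changes. Ebp, the sterol isomerase after demethylation, stood at 40, 38.3 and 36.1 CPM in SM negative and 38, 41.5 and 34.6 CPM in SM positive libraries, lower in 2 of 3 pairs, with a blocked log2 change of -0.01 ± 0.0547 (adjusted p = 0.95). Fdft1, the squalene synthase, had a blocked log2 change of 0.03 ± 0.0419 (adjusted p = 0.654), with 14.3% of its 31-base stretches shared. Tm7sf2, a C14 sterol reductase at only 4.75 TPM, was the 1 synthesis enzyme whose SM positive libraries (7.65, 9.39 and 7.95 CPM) all lay above the SM negative ones (6.96, 7.27 and 6.54 CPM), and it did not pass in either fit (blocked adjusted p = 0.112). It shares exon sequence with Vps51 on the same strand, at 12.9% of its 31-base stretches. Of all members, 3 had groups that did not overlap, Tm7sf2, Insig1 and Insig2, each with SM positive above. Such a gap was found in 10.4% of all genes tested, close to the 3 of 30 here. No member had the opposite gap, found in 9.47% of all genes.

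The synthesis enzymes also differed between replicate numbers. The summed level of the 18 enzymes was 3817, 4604 and 3844 CPM in SM negative replicates 1, 2 and 3 and 4157, 5364 and 4329 CPM in SM positive replicates 1, 2 and 3. Replicate 2 was thus the highest library of each fraction, and the SM negative replicate 2 sum was above SM positive replicates 1 and 3. Gene by gene, SM positive replicate 2 was the highest of the 6 libraries for all 18 enzymes, and SM negative replicate 2 the highest of its fraction for 17, with Ebp as the exception. For 14 of the 18, SM negative replicate 2 was above both SM positive replicates 1 and 3. Within pairs 1, 2 and 3 the sum was 8.9%, 16.5% and 12.6% higher in SM positive cells.

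**Figure D3:**
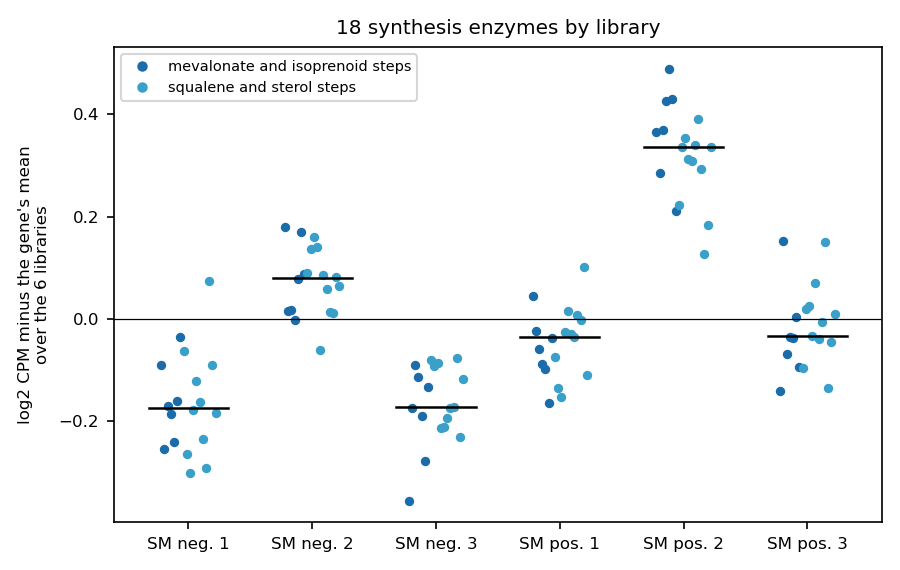
Level of each of the 18 synthesis enzymes in each library, as log2 CPM minus that gene's mean over the 6 libraries (points, coloured by part of the pathway); black lines are medians over the 18 enzymes. Replicate 2 stood highest in both fractions, with medians of 0.08 in SM negative and 0.34 in SM positive, while the other libraries had medians of -0.17 in SM negative and -0.04 and -0.03 in SM positive replicates 1 and 3.

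The enzymes also varied together from library to library. After removing each fraction's mean, the median Pearson correlation of log2 CPM between pairs of the 18 enzymes was 0.89 over the 6 libraries, given as a description because all genes share the same libraries. Replicate 2 lay above its fraction's mean for all 18 enzymes in both fractions. No such correlation was computed for other genes, so whether 0.89 is unusual is not known. What the replicate number marks is not stated. The unpaired estimates moved with single libraries: without SM positive replicate 2 the median log2 change of the 18 enzymes was 0.03, and without SM negative replicate 2 it was 0.28. With the block, leaving out pair 1, 2 or 3 gave medians of 0.20, 0.14 and 0.17. Over all genes the median log2 change was between -0.004 and 0.009 in every fit.

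**Figure D4:**
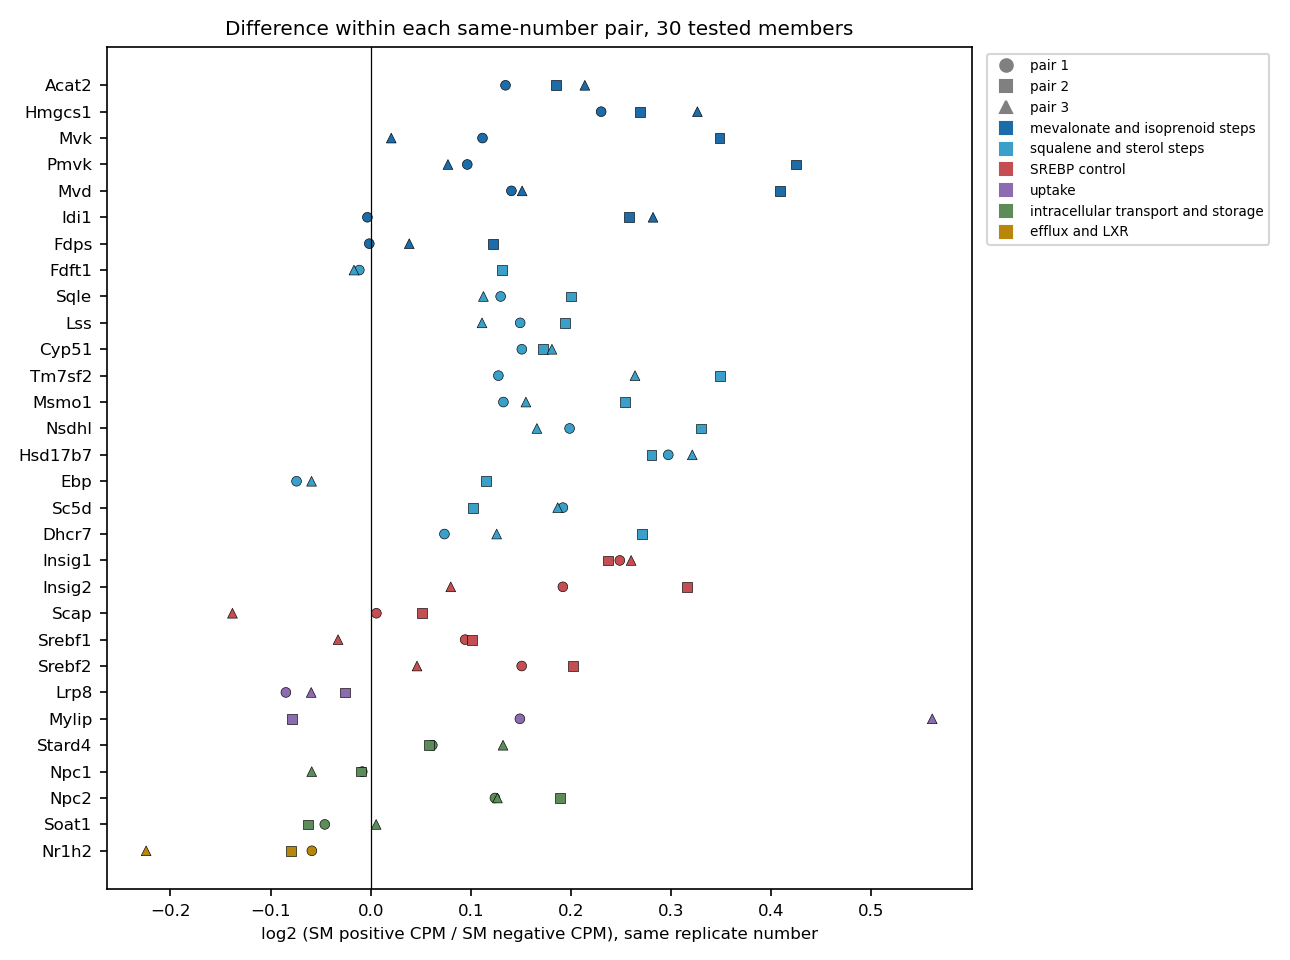
Log2 ratio of SM positive to SM negative CPM (0.5 CPM added to each) within each same-number pair for the 30 tested members, coloured by role; circles, squares and triangles are pairs 1, 2 and 3. For 19 members all 3 pairs lay above 0, 14 of them synthesis enzymes, and for Lrp8, Npc1 and Nr1h2 all 3 lay below.

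Of the 30 tested members, 19 were higher in SM positive cells in all 3 pairs, against 23.9% of all genes tested, and 3 were lower in all 3 pairs, against 22.7%. By role the count of higher members was 14 of 18 synthesis enzymes, 3 of 5 control genes, 0 of 2 uptake genes, 2 of 4 transport genes and 0 of the 1 tested efflux gene. The median log2 change was 0.18 for synthesis, 0.14 for control, 0.08 for uptake and 0.03 for transport genes, and -0.12 for the efflux gene. The uptake value is the middle of only 2 genes with opposite signs, and without SM negative replicate 2 or 3 it was 0.23 or -0.0097. Control genes had a median of 0.065 without SM positive replicate 2, and the efflux gene had -0.20 and -0.057 without SM negative replicate 2 or 3. The difference between these roles was not tested. Members were abundant genes, with a median of 125 CPM against 25.1 CPM over all genes tested, so shares over all genes are not matched to them in level.

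Among the control genes, Insig1, Insig2 and Srebf2 rose with the block, and Srebf1 and Scap did not pass. Insig1, itself a target of SREBP (ENSMUSG00000045294.11, chromosome 5, 28071363 to 28078662, plus strand), stood at 519, 542 and 519 CPM in SM negative and 617, 639 and 622 CPM in SM positive libraries. All SM positive libraries lay above all SM negative ones, and the pairs gave log2 gaps of 0.25, 0.24 and 0.26. Unlike the enzymes, Insig1 varied little between replicate numbers, with an SD of 12.9 CPM in SM negative and 11.3 CPM in SM positive libraries. Its log2 change was 0.25 ± 0.0491 (adjusted p = 0.0388) without the block and 0.25 ± 0.0388 (adjusted p = 0.000177) with it. The unblocked call ended when any 1 of the 6 libraries was left out (adjusted p from 0.0858 to 0.174), while the log2 change stayed between 0.23 and 0.27; the call was made in all 7 blocked fits.

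Insig2, which has the same sterol-retention role and is less dependent on SREBP, stood at 54.8, 51 and 53.3 CPM in SM negative and 62.6, 63.6 and 56.4 CPM in SM positive libraries. Its groups did not overlap, and it rose with the block only (log2 change 0.20 ± 0.0499, adjusted p = 0.0109; without the block adjusted p = 0.226). Srebf2, the factor that drives cholesterol genes and its own gene (ENSMUSG00000022463.7, chromosome 15, 82147181 to 82205379, plus strand), stood at 267, 288 and 268 CPM in SM negative and 296, 331 and 277 CPM in SM positive libraries, with overlapping groups but each SM positive library above its partner. Its blocked log2 change was 0.13 ± 0.041 (adjusted p = 0.0338). Srebf1, the factor tied to fatty acid synthesis, stood at 66.5, 69.6 and 63.2 CPM in SM negative and 71, 74.6 and 61.7 CPM in SM positive libraries, lower in SM positive cells in pair 3 (blocked log2 change 0.06 ± 0.0453, adjusted p = 0.463). Scap, the escort protein, stood at 94.4, 96.9 and 103 CPM in SM negative and 94.8, 100.4 and 93.4 CPM in SM positive libraries (blocked log2 change -0.03 ± 0.0451, adjusted p = 0.76). In DESeq2 with the block the Insig2 and Srebf2 calls were not made, and in limma-voom with the block the Srebf2 call was not.

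**Figure D5:**
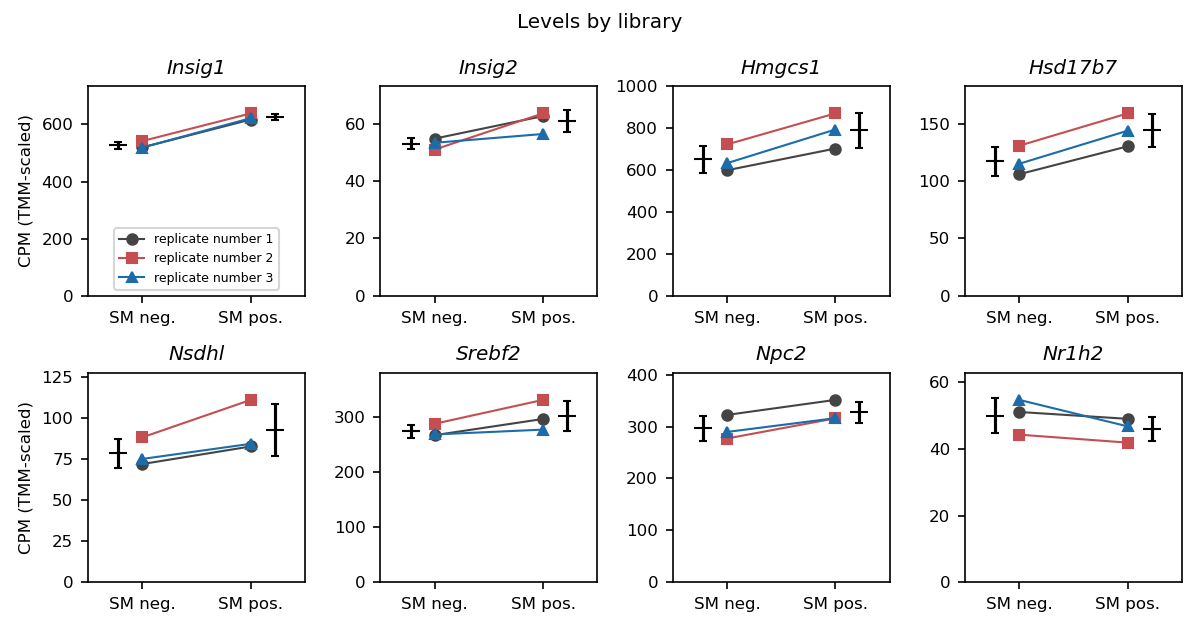
CPM (TMM-scaled, axis from 0) in each library for 8 members, with lines joining libraries of the same replicate number and, at the sides, the mean ± SD of each fraction (n = 3). The lines slope up in parallel for Hmgcs1, Hsd17b7 and Insig1, start from a higher level at replicate 2 for Hmgcs1, Hsd17b7, Nsdhl and Srebf2, and slope down in all 3 pairs for Nr1h2.

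The 2 uptake genes did not pass in either fit. Lrp8, a receptor for lipoproteins and reelin, stood at 129, 166 and 137 CPM in SM negative and 122, 163 and 131 CPM in SM positive libraries. It followed the same replicate pattern as the enzymes, highest at replicate 2 in each fraction, yet each SM positive library lay slightly below its partner (blocked log2 change -0.06 ± 0.0406, adjusted p = 0.401). Mylip stood at only 3.74, 4.86 and 3.03 CPM in SM negative and 4.2, 4.58 and 4.71 CPM in SM positive libraries, from 64 to 112 counts per library, with pairs that went in different directions (blocked log2 change 0.22 ± 0.157, adjusted p = 0.39).

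Of the 4 transport and storage genes, Npc2 alone rose with the block. Npc2, the small lysosomal carrier that hands cholesterol to NPC1 (ENSMUSG00000021242.9, chromosome 12, 84754562 to 84773152, minus strand), stood at 322, 277 and 289.6 CPM in SM negative and 351, 316 and 316 CPM in SM positive libraries. Here replicate 1 was the highest of each fraction, unlike the synthesis enzymes, and every SM positive library was above its partner (log2 gaps of 0.12, 0.19 and 0.13). Its log2 change was 0.15 ± 0.0694 (adjusted p = 0.39) without the block and 0.15 ± 0.0389 (adjusted p = 0.0149) with it. Its membrane partner Npc1 stood at 28.5, 31 and 32.8 CPM in SM negative and 28.4, 30.8 and 31.5 CPM in SM positive libraries, with a blocked log2 change of -0.03 ± 0.0553 (adjusted p = 0.814). Stard4, a soluble sterol carrier known as an SREBP target, stood at 158, 184 and 146 CPM in SM negative and 165, 192 and 160.5 CPM in SM positive libraries and was higher in all 3 pairs without passing (blocked log2 change 0.08 ± 0.0402, adjusted p = 0.183). Soat1, which esterifies cholesterol for storage, had a blocked log2 change of -0.03 ± 0.0419 (adjusted p = 0.654).

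Of the 3 efflux members, the receptor alone had enough counts to be tested. Nr1h2, which encodes LXRβ, stood at 51, 44.2 and 54.6 CPM in SM negative and 49, 41.8 and 46.7 CPM in SM positive libraries, lower in SM positive cells in every pair, with overlapping groups. Its log2 change was -0.12 ± 0.0893 (adjusted p = 0.608) without the block and -0.12 ± 0.0506 (adjusted p = 0.122) with it, so it passed in neither fit. It was the 1 member at an unadjusted p under 0.05 in the lower direction with the block.

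Around the members, 88 other genes of sterol and related lipid metabolism were listed by role, and 79 had enough counts to be tested. None passed without the block (11 were higher and 4 lower at an unadjusted p under 0.05 in edgeR's test; DESeq2 called 1 higher and limma-voom none). With the block in edgeR 11 of the 79 rose and 3 fell, against 8.52% called higher and 5.6% called lower over all genes. DESeq2 with the block called 2 higher and 1 lower, and limma-voom 10 higher and 2 lower. The median log2 change of the 79 was 0.04. The difference between these lists and the synthesis enzymes was not tested.

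Among 16 genes of the mevalonate side branches, which prenylate proteins and make ubiquinone and dolichol, none rose with the block and 1 fell, the prenyl-protein protease gene Rce1 (from 24.2 ± 1.6 to 21.2 ± 0.624 CPM, blocked log2 change -0.20 ± 0.0639, adjusted p = 0.0437). That is near the 5.6% called lower over all genes, and neither DESeq2 nor limma-voom with the block made the call. At an unadjusted p under 0.05, 2 of the 16 were higher and 2 lower in that fit. Of 14 genes that cut SREBP or degrade sterol-regulated proteins none was called by edgeR, DESeq2 or limma-voom with the block, and none had an unadjusted p under 0.05 in edgeR. Of 12 fatty acid genes under SREBP all had log2 changes above 0, their median was 0.09, and 2 rose with the block, the desaturase gene Scd2 (0.20 ± 0.0416, adjusted p = 0.00253) and the acyl-CoA synthetase gene Acsl3 (0.15 ± 0.0426, adjusted p = 0.0191). Over all genes, edgeR with the block called 8.52% higher. DESeq2 with the block called 1 of the 12 and limma-voom 2.

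The list of other sterol transport and ester turnover genes had calls in both directions with the block. In edgeR and in limma-voom 3 of 18 were higher and 2 lower, and in DESeq2 1 was higher and 1 lower. Over all genes, edgeR with the block called 8.52% higher and 5.6% lower. Lipa, the lysosomal acid lipase that frees cholesterol from lipoprotein esters, went from 13.6 ± 1.65 to 18.7 ± 0.918 CPM, with all SM positive libraries above all SM negative ones (blocked log2 change 0.46 ± 0.0754, adjusted p = 0.000319; without the block adjusted p = 0.0636). Osbpl8, a lipid exchange protein of membrane contact sites, also rose (0.24 ± 0.051, adjusted p = 0.00336). Tmem97, a sterol-responsive membrane protein that binds NPC1, fell from 145 ± 9.08 to 125 ± 9.36 CPM (blocked log2 change -0.21 ± 0.0407, adjusted p = 0.00134). Soat2, the second cholesterol acyltransferase, fell from 1.06 ± 0.567 to 0.366 ± 0.0587 CPM (adjusted p = 0.00815), on 14 to 43 counts in SM negative and 6 to 10 counts in SM positive libraries. SM negative replicate 1, with 43 counts, was the highest library, and the groups did not overlap.

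Among 6 tested efflux and LXR target genes outside the members, 3 rose with the block in edgeR and 3 in limma-voom, but 0 in DESeq2, against 8.52% called higher over all genes in edgeR. Those with the smallest p were Arl4c, a small GTPase gene that LXR induces (0.17 ± 0.0418, adjusted p = 0.00825) and Lpcat3, a phospholipid remodelling enzyme gene that LXR induces (0.27 ± 0.065, adjusted p = 0.00913). Of 9 tested oxysterol and accessory enzymes 3 rose with the block in edgeR, 2 in limma-voom and 0 in DESeq2, beside the same 8.52% over all genes in edgeR. The edgeR calls were led by Erg28, a scaffold of the C4 demethylation enzymes (0.19 ± 0.0443, adjusted p = 0.00672), and Cyp7b1, an oxysterol hydroxylase (0.33 ± 0.0812, adjusted p = 0.0101). Of 4 tested lipoprotein receptors and partners none was called by edgeR, DESeq2 or limma-voom with the block, and 2 were higher at an unadjusted p under 0.05 in edgeR.

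Over the 6 libraries, the members whose log2 CPM followed Insig1 most closely were Hsd17b7, Tm7sf2 and Hmgcs1, with Pearson correlations of 0.88, 0.88 and 0.86, and Nr1h2 had the lowest, at -0.64. Outside the members, Farp1, Car13, Glrx, Dhrs9 and Tmx4 had the highest correlations with Insig1 among 10532 genes of at least 5 CPM, from 0.99 for Tmx4 to 0.996 for Farp1. These values describe 6 libraries that share their fraction and depth, and carry no test.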

How the data were processed

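The authors deposited RSEM-style expected counts for each gene from RNA-seq of polyadenylated RNA (13.5 to 14.4% of values per library, zeros included, were not whole). The submitters' processing notes list RSEM 1.3.1, STAR 2.6.0a, FastQC 0.11.5 and GRCm38. Tool roles, the annotation release and strand settings were not given in the sources used here. Identifiers were matched to GENCODE M21 (GRCm38). Expected counts were rounded, filtered with filterByExpr (14038 genes left), scaled by TMM and tested in R 4.3.3 with edgeR 4.0.16 (robust quasi-likelihood), with Benjamini-Hochberg adjustment over all genes and a threshold of 0.05. Every adjusted p in the text comes from these fits unless DESeq2 1.42.0 or limma-voom (limma 3.58.1) is named. SE is the log2 change divided by the square root of F. The test was checked on simulated data with known fold changes. That simulation held no replicate effect and only changes larger than any member's, so it does not bear on the blocked calls of members. No 2 libraries agreed within sampling noise.

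The numbers in the labels were taken to pair the libraries because deviations from the fraction means correlated between same-number libraries. The values were 0.22, 0.28 and 0.196 (minimum 0.1), against -0.175 to -0.0435 between others. Deviations cancel within each fraction, so the negative values follow from the positive ones and add no support. The fit without the block is the main one, and the blocked fit is given beside it where it changes a call. Members, gene lists and tests were chosen with earlier results of these data known. Named were all members and, from each other list, up to 2 genes higher and 2 lower with the smallest p past the threshold. Alternatives were RLE factors, library totals, all genes unfiltered, only genes above 1 CPM in at least 3 libraries, DESeq2, limma-voom, no robust estimation, the block, and leaving out libraries or pairs. TPM used the union of each gene's exons.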

Additional observations from a re-analysis of the deposited data

How the results depend on the processing

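Insig1, the 1 member called without the block, was higher in SM positive cells under every alternative run. Of the 16 called with the block, Idi1 alone lost its sign, at -6.56e-05 without SM positive replicate 2 and without the block. The members past the threshold numbered 1 with RLE factors, library totals, the 1 CPM filter, DESeq2, limma-voom and no robust estimation, and 4 with no filter (Insig1, Hmgcs1, Hsd17b7 and Nsdhl). They numbered 16 with the replicate block, 8 with the block in DESeq2, 15 with the block in limma-voom and 17 with the block and library totals. With the block and without pair 1, 2 or 3 they numbered 7, 9 and 9. Without any 1 library and no block the count was 0. In all 7 blocked fits Insig1, Hmgcs1, Hsd17b7 and Nsdhl were called. Over all genes, 190 passed in the fit without the block, 334 with DESeq2 and 663 with no filter. With the block 1982 passed, with the block in DESeq2 585, with the block in limma-voom 1586, with the block and library totals 1961, and without pair 1, 2 or 3 under the block 705, 1793 and 886. Leaving out 1 library without the block gave 25 to 123.

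The median log2 change of all members ranged from 0.029 to 0.24 when 1 library was left out without the block. For synthesis enzymes it ranged from 0.034 to 0.28, for the mevalonate and isoprenoid steps from 0.030 to 0.32, for the squalene and sterol steps from 0.046 to 0.28, for transport and storage from -0.021 to 0.054, for control genes from 0.065 to 0.19, for uptake from -0.0097 to 0.23 and for the efflux gene from -0.20 to -0.057. Leaving out a pair with the block was an alternative chosen after seeing the data. The median was then 0.12 to 0.16 for all members, 0.14 to 0.20 for synthesis enzymes and -0.0061 to 0.16 for uptake. All these medians moved by less than the spread over pairs. That spread comes from the same few pairs, so leaving out a pair could hardly move a median beyond it. The comparison with the spread therefore cannot show whether the blocked medians are stable. With 0 to 2 counts per library, Abca1 and Abcg1 could not be compared at this depth.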
